A study of Mus musculus with 48 samples.

Results

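The miR-23, miR-27 and miR-24 families are made in mice from a pair of paralogous gene clusters, called a and b here after the miR-23a and miR-23b hairpins. The mature strands studied were those on a list of 7 names, each found as a row in all 3 deposited count tables, out of 1409 entries in all. Of these 7, 3 come from the a cluster (mmu-miR-23a-3p, mmu-miR-27a-3p and mmu-miR-24-2-5p) and 3 from the b cluster (mmu-miR-23b-3p, mmu-miR-27b-3p and mmu-miR-24-1-5p). The remaining 1, mmu-miR-24-3p, is the same mature RNA from both clusters. The species prefix is left out from here on. Small RNA had been sequenced from C57BL/6 mice to ask which miRNAs circulate outside cells in the airway lining fluid and serum, and which are in airway immune cells and epithelium, during an allergic response. Allergic mice (AA) were injected into the peritoneum with 50 ug ovalbumin in alum every week for 3 to 4 weeks and then, from 7 days after the last injection, inhaled 50 ug ovalbumin in 20 ul on 3 days. Immunized mice (IMM) had the same injections and inhaled saline instead, and untreated mice (CTR) had neither. Fluid and cells were parted by centrifugation of a 1 ml airway lavage (BALF for the fluid and Pellet for the cells), beside serum and epithelial brushings (Epith). BALF, Pellet and Serum each had 7 allergic, 4 immunized and 3 untreated libraries, and brushings had 3, 2 and 1, each brushing library from 1 to 3 mice. Age and sex are not in the labels used here.

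A miRNA is cut from a hairpin precursor as a 5p and a 3p strand, and the strand that is kept guides the silencing complex to messenger RNAs that pair with its seed, bases 2 to 8. Members of a cluster can be transcribed together as 1 long precursor. In mouse T cells, miR-24 and miR-27 hold back the T helper type 2 programme that drives allergic inflammation: miR-24 acts on the interleukin-4 messenger RNA, and miR-27 on that of the transcription factor GATA-3. The miR-23 family is known in T cells as a brake on effector function.

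The mature strands are shown because the comparison of clusters rests on telling their copies apart. They are RefSeq sequences placed on GRCm38.p6, 5′ to 3′, with the seed in capitals, and 6 of the 7 names matched an entry of that table. miR-23b-3p had no entry, so how the miR-23 copies differ in sequence is not shown here.
miR-23a-3p: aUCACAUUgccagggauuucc
miR-27a-3p: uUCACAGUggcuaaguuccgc
miR-27b-3p: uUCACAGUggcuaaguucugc
miR-24-3p: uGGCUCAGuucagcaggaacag
miR-24-2-5p: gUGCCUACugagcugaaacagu
miR-24-1-5p: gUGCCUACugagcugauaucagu
miR-27a-3p and miR-27b-3p have the same seed and, counted from the 5′ end of miR-27a-3p, differ by a single substitution, C19U. The miR-24 5p strands also share a seed and their first 16 bases, and part after that. They are the only strands of this family that tell the miR-24 hairpins apart, because miR-24-3p is identical from both.

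The a cluster lies on the forward strand of chromosome 8 in mm10, with GENCODE vM21 placing Mir23a at chr8:84208518-84208592, Mir27a at chr8:84208672-84208758 and Mir24-2 at chr8:84208815-84208921, a span of 404 bases. Mir24-2 overlaps an exon of the long noncoding gene Gm26532. The b cluster lies on the forward strand of chromosome 13, with Mir23b at chr13:63300484-63300557, Mir27b at chr13:63300712-63300784 and Mir24-1 at chr13:63301208-63301275, a span of 792 bases. Mir23b is in an intron of 2010111I01Rik, while Mir27b and Mir24-1 each overlap an exon of at least 1 of its transcripts. All 3 also lie in an intron of Fancc, which is on the other strand. Both Mir24 hairpins have a miRNA gene on their opposite strand, Mir3074-2 and Mir3074-1.

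Total counts ran from 135707 to 561803 in BALF, 43087 to 960796 in Pellet, 137638 to 2738223 in Serum and 113004 to 654157 in Epith. A level of 3 counts, taken as the floor, was therefore as low as 1.1 and as high as 69.6 counts per 1000000 of the library's own total, before any scaling. CPM below are counts per 1000000 after TMM scaling, so this floor is not on their scale. These limits and the shares cover counting error only. The tables divide the libraries into 3 sets. Set 2 holds all untreated libraries, sets 3 and 4 hold the immunized ones, and each set has allergic libraries. The labels do not tie libraries of different compartments to the same mouse, so p-values measure the spread between these libraries, which may be partly technical. No marker miRNA of any cell type list was at 0 in all libraries of a group. This held in every compartment, so it does not tell the compartments apart.

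The 7 strands together were a large part of the counted miRNA in each compartment. They took 8.49, 8.94 and 9.72% (lowest, median and highest) of counts in allergic BALF, against 10.1 to 12.6% in immunized and 10.3 to 12.2% in untreated BALF. In Pellet they took 3.29, 7.76 and 9.53% in allergic libraries, against 11.5 to 14.3% in immunized and 4.00 to 11.7% in untreated libraries. The serum range was wide in every group, 2.46 to 14.5% in allergic, 4.37 to 12.2% in immunized and 1.28 to 4.98% in untreated libraries. In brushings the share was 7.12 to 9.40% in allergic, 10.5 to 10.8% in immunized and 8.92% in the untreated library. The allergic BALF range lies below both other BALF ranges, whereas the serum ranges overlap. A level of this kind is a share of what was sequenced, not an amount per volume or per cell, and in these bulk samples fewer cells of a type and less RNA per cell cannot be told apart.

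Over all 48 libraries miR-23a-3p had 694428 counts, miR-27a-3p 514623 and miR-24-3p 456221, followed by miR-27b-3p with 189848 and miR-23b-3p with 107136. The miR-24 5p strands were far lower, at 17908 for miR-24-2-5p and 1324 for miR-24-1-5p, which was at 0 counts in 1 library (Pellet CTR 1) and above 0 in 47 of 48. By mean share, miR-23a-3p ranked between 4 and 13 among all entries, depending on compartment and on allergic or non-allergic mice, and miR-24-1-5p between 179 and 282. The other strands of the miR-23 and miR-27 hairpins had few counts, with 102 counts of miR-23a-5p, 158 of miR-27a-5p, 142 of miR-23b-5p and 271 of miR-27b-5p over all libraries. None of these 4 had enough counts to be tested in allergic against all non-allergic libraries in BALF, Pellet or Serum, and the 1 tested in brushings did not pass edgeR's test. Between compartments, 2 of the 4 were tested, and without allergy miR-27b-5p was higher in BALF than in Serum and miR-27a-5p lower in BALF than in Pellet at an adjusted p under 0.05 in edgeR's test. miR-24-3p exceeded the sum of its 5p strands by a median of 22.2-fold in allergic and 22.1-fold in non-allergic BALF, and by 25.1-fold in allergic and 28.6-fold in non-allergic Pellet.

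**Figure D1:**
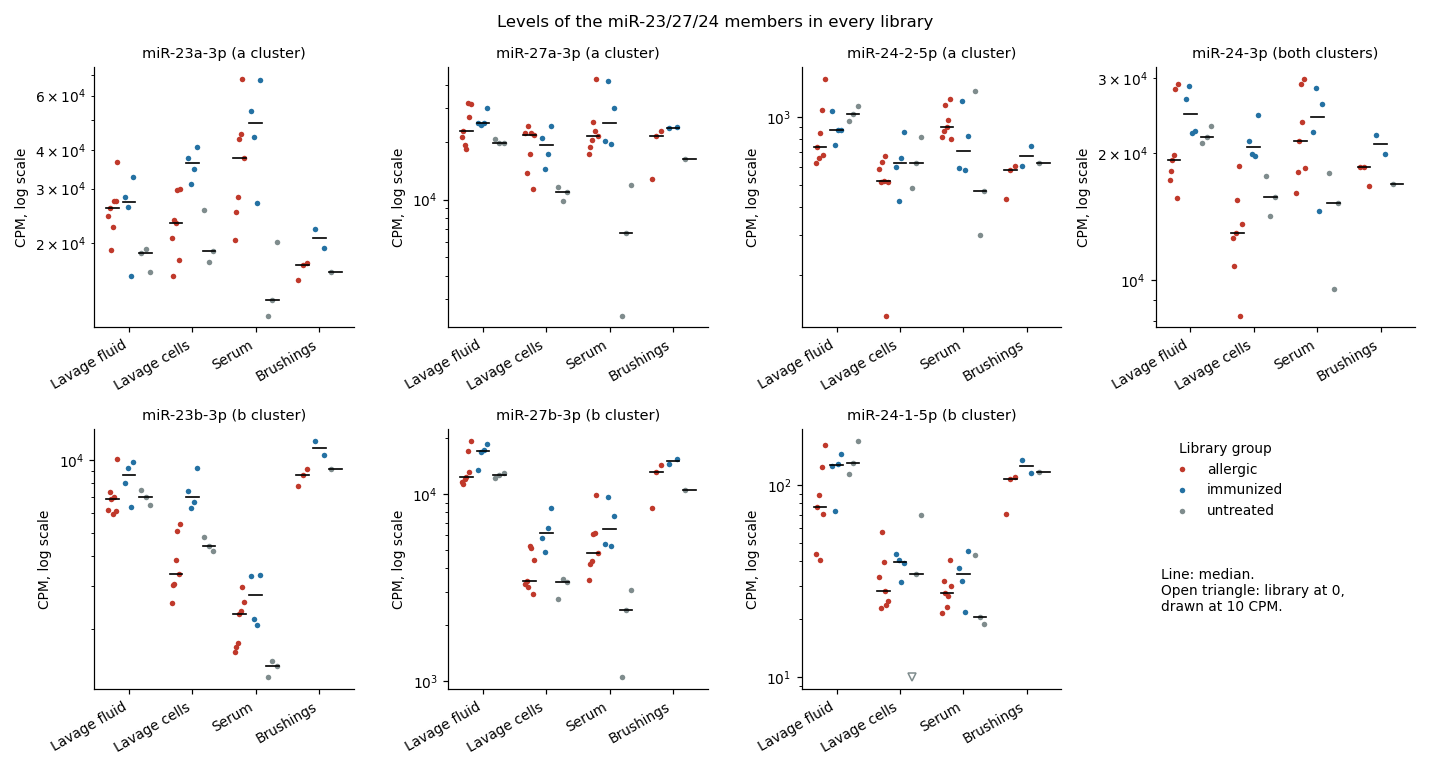
Level of each strand in each library, in CPM scaled by TMM over all 48 libraries, on a log axis, by compartment and by group (AA allergic, IMM immunized, CTR untreated); each point is 1 library. The b cluster strand miR-23b-3p is lowest in Serum, where miR-23a-3p reaches 67818 CPM, and miR-23b-3p in Pellet is lower in AA (2563 to 5430 CPM) than in IMM libraries (6321 to 9244 CPM).

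The first comparison asked whether the allergic response changed the members within a compartment. Non-allergic means immunized and untreated together, with the library set as a term, and a strand passed at an adjusted p under 0.05 by edgeR (quasi-likelihood, Benjamini-Hochberg adjustment over all entries). In the lavage cells miR-23b-3p and miR-24-3p were lower in allergic mice. In lavage fluid miR-24-3p and miR-24-1-5p were lower. No strand was higher in allergic mice in this comparison, and in serum and brushings none of the 7 passed.

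In lavage cells, 56.2% of all entries tested passed, 29.5% higher and 26.7% lower, so the 2 of 6 tested strands that were lower are a share near the background. miR-23b-3p stood at 2563, 3367 and 5430 CPM (lowest, median and highest of 7) in allergic pellets, against 7395, 6321, 6690 and 9244 CPM in immunized and 4807, 4419 and 4205 CPM in untreated pellets. Each allergic library lay below every non-allergic library of its own set, although the allergic range overlaps the untreated one across sets. The log2 fold change of miR-23b-3p was -0.65 (SE 0.138, edgeR adjusted p = 9.96e-04). Within sets 2, 3 and 4 the log2 differences were -0.64, -0.63 and -0.88. Leaving out each pellet library in turn kept the fold change of miR-23b-3p between -0.69 and -0.53, with an adjusted p of at most 0.00659 in edgeR's test. Without the filter on low counts its adjusted p was 0.0560 in the same test.

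miR-24-3p, the strand both clusters make, had 8248, 12895 and 18659 CPM in allergic pellets (lowest, median and highest), against 21335, 19890, 19678 and 24591 CPM in immunized and 17667, 14166 and 15733 CPM in untreated pellets. It too was lower in each allergic library than in every non-allergic library of its set, with log2 differences of -0.39, -0.28 and -1.05 in sets 2, 3 and 4. Its log2 fold change was -0.49 (SE 0.149, edgeR adjusted p = 0.0110). Leaving out single libraries gave -0.55 to -0.37, with adjusted p at most 0.0416 in edgeR's test, but without the filter on low counts the adjusted p of miR-24-3p was 0.181.

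The remaining strands of the lavage cells did not pass. The log2 fold change was -0.28 (SE 0.185) for miR-23a-3p, +0.38 (SE 0.220) for miR-27a-3p, -0.22 (SE 0.148) for miR-27b-3p and -0.30 (SE 0.246) for miR-24-2-5p. The a cluster's miR-27a-3p was thus on the other side of 0 from the rest, though at -0.012 with limma on the deposited RPM, and without Pellet AA 6 its log2 fold change was +0.53, at an adjusted p of 0.0468 in edgeR's test. miR-24-1-5p, with 0 to 70.1 CPM in this compartment, had too few counts to be tested. The median over the 6 tested strands was -0.29, beside 0.04 over all 217 entries.

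Cell type markers also differed between allergic and non-allergic pellets, in both directions. Summed over 12 epithelial miRNAs, the level in allergic pellets was 4898 to 11182 CPM, against 12937 to 34099 CPM in non-allergic pellets, and 12 of 12 were lower at an adjusted p under 0.05 in edgeR's test. Summed over 8 hematopoietic miRNAs it was 135560 to 305480 CPM in allergic and 39654 to 56479 CPM in non-allergic pellets, with 7 of 8 higher and 1 lower. The part of these shifts in the lower miR-23b-3p and miR-24-3p of allergic pellets was not tested. Erythroid miRNAs ranged widely in each group, with sums of 48401 to 670370 CPM in allergic, 44059 to 143990 CPM in immunized and 64702 to 636280 CPM in untreated pellets, and their part was not tested either.

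In lavage fluid 33.2% of entries passed, 19.0% higher and 14.2% lower, beside 2 of 7 strands, both lower. This count of 2 is small and was not tested against those shares. miR-24-3p had 15652, 19206 and 29046 CPM in allergic BALF (lowest, median and highest), against 26870, 28802, 22280 and 22486 CPM in immunized and 21072, 21799 and 23083 CPM in untreated BALF. The groups overlap over all libraries and were apart in set 2 alone. Its log2 fold change was -0.26 (SE 0.081, edgeR adjusted p = 0.0246), and it no longer passed edgeR's test without BALF AA 1 (-0.21, adjusted p 0.112), without BALF AA 2 (-0.21, adjusted p 0.114) or without the filter on low counts (-0.27, adjusted p 0.347).

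miR-24-1-5p, the low 5p strand that only the b cluster makes, had 40.8, 76.8 and 161 CPM in allergic BALF, against 126, 73.0, 128 and 144 CPM in immunized and 114, 129 and 169 CPM in untreated BALF. Its values overlap between groups. The log2 fold change was -0.65 (SE 0.236, edgeR adjusted p = 0.0498), next to the threshold. It did not pass once any 1 of 11 libraries was left out, which is every BALF library other than IMM 2, AA 5 and AA 7, and the fold change was then -0.70 to -0.49, with an adjusted p of 0.0649 to 0.141 in edgeR. The 3 fits that kept the call reached -0.80. It also did not pass edgeR's test with DESeq2's size factors (adjusted p 0.0522), without the filter on low counts (adjusted p 0.176) or with that filter run on the design (adjusted p 0.0609).

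The other strands in lavage fluid stayed closer to 0. The log2 fold change was +0.18 (SE 0.156) for miR-23a-3p, -0.01 (SE 0.097) for miR-27a-3p, -0.25 (SE 0.167) for miR-24-2-5p, -0.20 (SE 0.114) for miR-23b-3p and -0.17 (SE 0.079) for miR-27b-3p. With libraries scaled by their total counts, miR-23a-3p was at -0.05, and miR-23b-3p and miR-27b-3p passed edgeR's test at -0.42 (adjusted p 0.00681) and -0.39 (adjusted p 0.00503). limma on the deposited RPM called both, at -0.42 and -0.39, but these RPM are scaled by library totals too, so this is not a separate check of the scaling. DESeq2's test called miR-27b-3p at -0.19 (adjusted p 0.0267), and edgeR called miR-23b-3p without BALF IMM 3 at -0.28 (adjusted p 0.0421). Scaling by total counts moved the median of all BALF entries by -0.21, and the split of higher to lower calls among all entries became 34 to 68 from the 48 to 36 given by TMM. In Pellet it moved the median by -0.36 and gave 34 higher calls of 101, beside 64 of 122. Hematopoietic miRNAs summed to 10939 to 35179 CPM in allergic and 2783 to 7168 CPM in non-allergic BALF, and epithelial ones to 123020 to 259300 CPM in allergic and 82122 to 238430 CPM in non-allergic BALF. Erythroid miRNAs summed to 11622 to 150360 CPM in allergic and 2791 to 13692 CPM in non-allergic BALF. Endothelial miRNAs summed to 590 to 1631 CPM in allergic and 1058 to 4939 CPM in non-allergic BALF. Mesenchymal and muscle miRNAs summed to 3729 to 10835 CPM in allergic and 7206 to 18031 CPM in non-allergic BALF. The part of these lists in the values of miR-24-3p and miR-24-1-5p was not tested.

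Serum gave no call at all: 0 of 347 entries passed edgeR's test, DESeq2's or limma's, with 27, 35 and 19 at an unadjusted p under 0.05, and the same held for all 7 strands. The log2 fold changes in serum were +0.62 for miR-27a-3p, +0.37 for miR-24-2-5p, +0.36 for miR-27b-3p, +0.33 for miR-23a-3p, +0.26 for miR-24-3p, +0.09 for miR-23b-3p and -0.06 for miR-24-1-5p. Their median was 0.33, beside -0.07 over all entries. In brushings 2.94% of 306 entries passed and none of the strands did. Here all 7 fold changes were below 0, between -0.29 for miR-24-1-5p and -0.11 for miR-24-3p, with a median of -0.20 beside -0.06 over all entries. With 3 allergic and 3 non-allergic brushing libraries, that count rests on little replication: 0 to 27 entries passed when 1 library was left out.

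**Figure D2:**
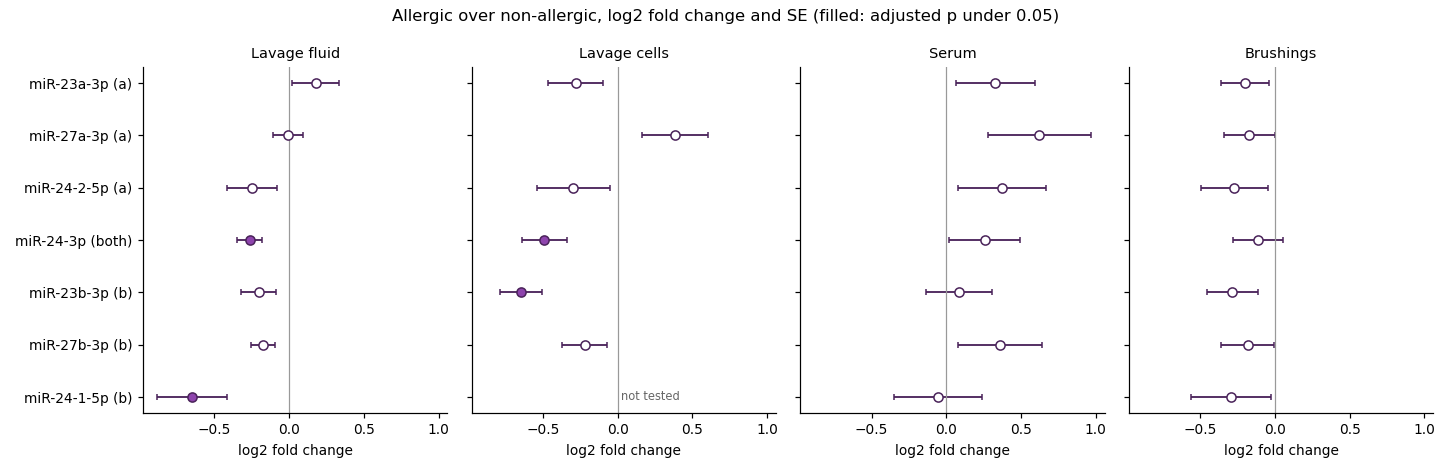
Log2 fold change of each strand, allergic over non-allergic, by compartment, with bars of 1 SE, from edgeR with the library set as a term; filled points passed at an adjusted p under 0.05. miR-23b-3p and miR-24-3p in Pellet are at -0.65 and -0.49, and no strand passed in Serum or Epith.

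Whether the allergic change differed between compartments was tested directly, as an interaction over all libraries. The change of miR-23b-3p was lower in Pellet than in Serum, with a difference of -0.65 on the log2 scale (SE 0.213, edgeR adjusted p = 0.0190), and so was that of miR-24-3p, with -0.67 (SE 0.228, edgeR adjusted p = 0.0229). Of all 399 entries, 28.8% differed between these compartments, so 2 of 7 strands is the background share. Between BALF and Pellet, 17.0% of entries differed and none of the strands did, with +0.36 for miR-23b-3p and +0.16 for miR-24-3p. Between BALF and Serum, 7.52% differed and none of the strands did. Neither call held without the filter on low counts, where the adjusted p was 0.204 for miR-23b-3p and 0.129 for miR-24-3p in edgeR's test.

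The allergic libraries were next set against the untreated ones, a comparison that rests on set 2, and against the immunized ones, which rests on sets 3 and 4. Both use allergic libraries and 1 estimate of the spread. miR-27a-3p, the a copy of miR-27, was higher in allergic than in untreated pellets and serum, and did not pass against immunized ones. In Pellet it had 11326, 21866 and 24419 CPM in allergic libraries (lowest, median and highest), against 21052, 14543, 17413 and 24227 CPM in immunized and 11643, 9838 and 10978 CPM in untreated libraries. The immunized and allergic values overlap fully, and the untreated ones lie at or next to the low end of the allergic range.

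Against untreated pellets, where 39.5% of entries passed and 21.3% were higher, miR-27a-3p was the 1 strand of 7 called, at +1.01 (SE 0.282, edgeR adjusted p = 0.00962). Against immunized pellets its log2 fold change was +0.02, at -0.05 with DESeq2's size factors and -0.44 with total counts. The call against untreated pellets did not hold without Pellet AA 1 (+0.85, adjusted p 0.0530 in edgeR) or with total counts (+0.68, adjusted p 0.301 in edgeR). The difference between the 2 comparisons was +0.99 and did not pass (edgeR adjusted p = 0.263), where 0.775% of entries did.

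In Serum miR-27a-3p had 17267, 21474 and 42670 CPM in allergic libraries (lowest, median and highest), against 20161, 41837, 19592 and 30123 CPM in immunized and 2469, 6662 and 11902 CPM in untreated libraries. All untreated sera lay below every allergic and immunized serum. Against untreated sera the log2 fold change was +1.53 (SE 0.474, edgeR adjusted p = 0.0451), the 1 strand of 7 among the 9.29% of entries that passed and the 3.91% that were higher. It did not pass edgeR's test without Serum CTR 1, the lowest library (+1.13, adjusted p 0.102), nor without IMM 1, AA 2, AA 3, AA 4, AA 5 or AA 7 (+1.53 to +1.66, adjusted p 0.0559 to 0.0735), nor with total counts (+1.03, adjusted p 0.315), nor in set 2 alone with no replicate block (+1.48, adjusted p 0.110). Against immunized sera, where 0 of 409 entries passed in edgeR and 7 were at an unadjusted p under 0.05, the log2 fold change was -0.01, and +0.20 with total counts. The difference between the 2 comparisons was +1.54 and did not pass (edgeR adjusted p = 0.213), where 3.18% of entries did. The 3 untreated sera also had 537240 to 1840800 CPM of erythroid miRNAs, against 195280 to 1619600 CPM in allergic sera and 327460 to 894070 CPM in immunized sera. TMM-scaled CPM can sum to more than 1000000. The part of erythroid miRNAs in the low miR-27a-3p was not tested.

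The miR-23b-3p and miR-24-3p results of the lavage cells were met again against immunized mice, in libraries already used above. Here 38.4% of entries passed and 16.3% were lower, with 2 of 7 strands among them. The log2 fold change was -0.63 (SE 0.190, edgeR adjusted p = 0.0158) for miR-23b-3p and -0.54 (SE 0.201, edgeR adjusted p = 0.0450) for miR-24-3p. That of miR-24-3p did not pass without any 1 of 10 libraries (CTR 3, any IMM, AA 1, AA 3, AA 4, AA 5 or AA 6), at -0.61 to -0.42 with adjusted p 0.0529 to 0.131 in edgeR. Without the filter on low counts neither passed edgeR's test (adjusted p 0.127 for miR-23b-3p and 0.192 for miR-24-3p), and with total counts miR-24-3p did not (-1.02, adjusted p 0.0589). miR-27b-3p was at -0.42 and did not pass (edgeR adjusted p = 0.0735). Against untreated pellets miR-23b-3p was at -0.53 (edgeR adjusted p = 0.0650) and miR-24-3p at -0.29.

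In lavage fluid, 28.2% of entries passed against untreated mice, 11.9% lower, and 1 of 7 strands was among them, the a cluster's miR-24-2-5p. It had 624, 740 and 1472 CPM in allergic BALF (lowest, median and highest), against 1060, 755, 879 and 873 CPM in immunized and 965, 1033 and 1119 CPM in untreated BALF. The groups overlap across sets and were apart within set 2. The log2 fold change of miR-24-2-5p was -0.62 (SE 0.208, edgeR adjusted p = 0.0397). It did not pass without CTR 2, CTR 3, IMM 3, IMM 4, AA 1, AA 2 or AA 3 (-0.69 to -0.58, adjusted p 0.0507 to 0.114 in edgeR), nor without the filter on low counts (-0.74, adjusted p 0.0978). miR-24-1-5p was further from 0, at -0.97 (SE 0.365), and did not pass (edgeR adjusted p = 0.0622). It did pass edgeR's test with DESeq2's size factors (-1.06, adjusted p 0.0472), with total counts (-1.31, adjusted p 0.0210), in set 2 alone with and without the replicate block (-1.07, adjusted p 0.0212, and -1.05, adjusted p 0.0405) and without BALF CTR 1 (-1.18, adjusted p 0.0464). Against immunized BALF, where 5.44% of entries passed, none of the 7 strands did, and miR-24-2-5p was at +0.04, or -0.10 with total counts.

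The a and b copies were then compared within each library as a ratio of counts, which no scaling between libraries can change. In lavage fluid and in lavage cells the a copy of miR-23 made up more of the pair in allergic mice, and in lavage cells so did the a copy of miR-27. Each of 3 pairs was tested in 4 compartments, 12 tests in all, by a two-sided exact permutation test within library sets with Benjamini-Hochberg adjustment over the 12. The smallest p this allows is 0.00278 in BALF, Pellet and Serum and 0.250 in brushings, where no difference could pass.

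In BALF miR-23a-3p exceeded miR-23b-3p by 2.75, 3.78 and 4.45-fold in allergic libraries (lowest, median and highest), against 2.45, 2.73 and 3.53-fold in non-allergic libraries. The ranges overlap, and the log2 ratio was higher in allergic mice in every set, by 0.41, 0.28 and 0.49 in sets 2, 3 and 4. The mean log2 difference was +0.39 (exact permutation p = 0.00278, adjusted 0.0333), which is the smallest p the design can give. Without BALF AA 6 it was +0.34 (exact permutation p = 0.0250, adjusted 0.0667).

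In Pellet the miR-23 ratio was 5.15, 5.88 and 8.11 in allergic libraries (lowest, median and highest), against 3.92, 4.91 and 5.30 in non-allergic libraries. The log2 difference was +0.34 (exact permutation p = 0.00833, adjusted 0.0444), with 0.60, 0.25 and 0.16 in sets 2, 3 and 4. The miR-27 ratio was 3.27, 4.35 and 7.70 in allergic libraries, against 2.66, 2.95 and 4.22 in non-allergic libraries. Its log2 difference was +0.56 (exact permutation p = 0.0111, adjusted 0.0444), with 0.81, 0.20 and 0.66 in the sets. Both pellet results were close to the threshold: the adjusted exact permutation p was 0.050 to 0.0583 without any 1 of 8 libraries for miR-23 (CTR 2, CTR 3, IMM 2, IMM 4, AA 1, AA 3, AA 5 or AA 7) and 0.050 to 0.0667 without any 1 of 9 for miR-27 (those and IMM 3), while the differences stayed at +0.30 to +0.41 and +0.49 to +0.65.

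The other ratio differences did not pass after adjustment. For miR-23 the log2 difference was +0.23 in Serum (exact permutation p = 0.172, adjusted 0.258) and +0.08 in brushings. For miR-27 it was +0.15 in BALF, +0.28 in Serum (exact permutation p = 0.0278, adjusted 0.0667) and +0.01 in brushings. For the miR-24 5p strands it was +0.46 in BALF (exact permutation p = 0.0361, adjusted 0.0722), -0.35 in Pellet, +0.57 in Serum (exact permutation p = 0.0167, adjusted 0.050) and +0.06 in brushings. The Pellet value rests in part on Pellet CTR 1, whose ratio of 79.0 has no count of miR-24-1-5p behind it and comes from a pseudocount of 0.5. The serum difference of miR-27 was 0.68, -0.03 and 0.19 in sets 2, 3 and 4, so set 2, which holds the untreated sera, carries most of it.

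**Figure D3:**
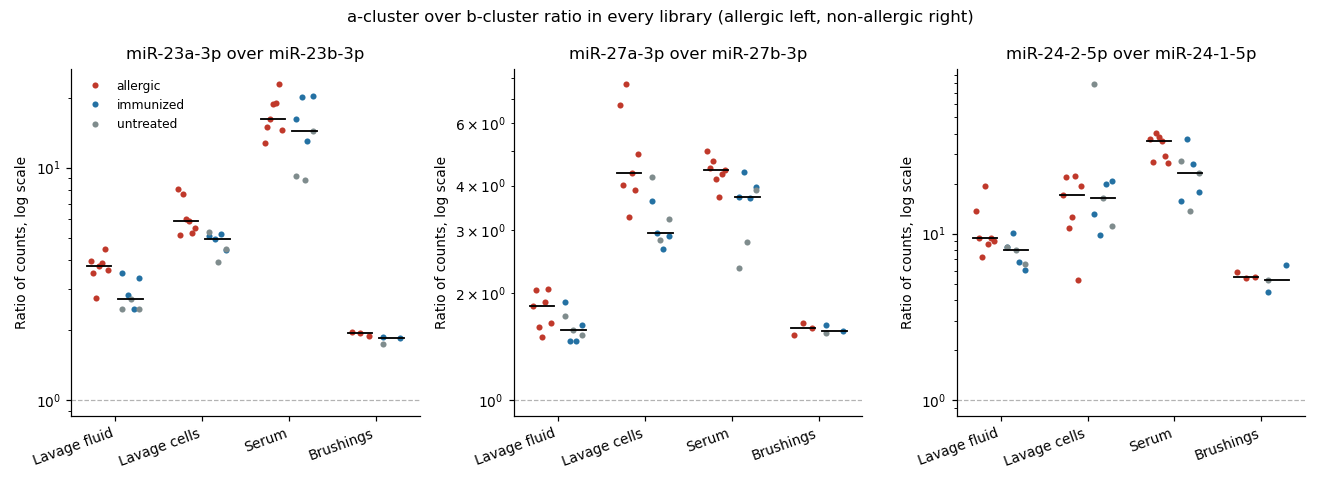
Ratio of the a copy to the b copy of each pair in every library, on a log axis, by compartment and group; each point is 1 library. The miR-23 ratio is lowest in Epith (median 1.95 in allergic and 1.85 in non-allergic libraries) and highest in Serum (median 16.2 in allergic and 14.3 in non-allergic libraries), and in BALF the allergic median of 3.78 is above the non-allergic 2.73.

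The balance of the clusters was next compared between compartments outside allergy. The a copy exceeded the b copy most in serum and least in brushings for all 3 pairs by median ratio. The median ratio of miR-23a-3p to miR-23b-3p in non-allergic mice was 1.85 in brushings, 2.73 in BALF, 4.91 in Pellet and 14.3 in Serum. For miR-27 the non-allergic medians were 1.56 in brushings, 1.57 in BALF, 2.95 in Pellet and 3.72 in Serum. For the miR-24 5p strands they were 5.29 in brushings, 7.95 in BALF, 16.3 in Pellet and 23.2 in Serum.

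These orders were tested with exact permutation tests in non-allergic mice, 18 in all and adjusted over the 18, with a smallest p of 0.00278, or 0.0278 where brushings are involved. The tests treat libraries of different compartments as independent, although they may share mice. For miR-23 all 6 pairs of compartments differed, by -2.36 for BALF against Serum, -0.75 for BALF against Pellet, +0.65 for BALF against Epith, -1.61 for Pellet against Serum, -3.0 for Epith against Serum and +1.39 for Pellet against Epith on the log2 scale (adjusted exact permutation p 0.00833, or 0.0357 with brushings). For miR-27 the log2 difference was -1.15 for BALF against Serum, -0.97 for BALF against Pellet, -1.18 for Epith against Serum and +0.99 for Pellet against Epith (adjusted exact permutation p 0.00833, or 0.0357 with brushings). BALF and Epith did not differ detectably in it (+0.02, adjusted exact permutation p = 0.833), nor did Pellet and Serum (-0.19, adjusted exact permutation p = 0.234). For the miR-24 5p strands it was -1.53 for BALF against Serum, -1.22 for BALF against Pellet, -2.05 for Epith against Serum and +1.73 for Pellet against Epith, and all 4 passed. The difference between BALF and Epith (+0.52, adjusted exact permutation p = 0.0667) and that between Pellet and Serum (-0.31) did not. With a pseudocount of 5 the BALF and Pellet difference of the 5p strands was -0.48 (adjusted exact permutation p = 0.0813), and that between Pellet and Serum was -0.83 and passed (adjusted exact permutation p = 0.00714).

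As a share of all counts that can be assigned to a cluster, the a cluster gave a median of 71.4% in allergic and 66.9% in non-allergic BALF, and 83.8% in allergic and 80.0% in non-allergic Pellet. In Serum it was 88.9% in allergic and 87.9% in non-allergic mice, and in brushings 63.6% in allergic and 62.9% in non-allergic mice. These counts are of mature strands, and leave out miR-24-3p, which both clusters make.

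Strand by strand, the compartment differences of non-allergic mice fell mostly on the b cluster. Fold changes here come from a joint fit of all 4 compartments, in which 77.0% of 356 entries differed between BALF and Serum, 68.3% between BALF and Pellet, 11.2% between BALF and Epith, 68.0% between Pellet and Serum, 64.0% between Epith and Serum and 62.1% between Pellet and Epith. Against those shares, 4, 3, 0, 1, 4 and 4 of the 7 strands passed. miR-23b-3p had 6376, 7533 and 9753 CPM (lowest, median and highest) in BALF, 4205, 6321 and 9244 CPM in Pellet, 9167, 10442 and 11939 CPM in brushings, and 1258, 2065 and 3325 CPM in Serum. Serum lay below all other compartments with no overlap, and BALF and Pellet overlapped. Within these ranges, untreated libraries lay below immunized ones in Pellet (4205 to 4807 against 6321 to 9244 CPM) and Serum (1258 to 1477 against 2065 to 3325 CPM), and overlapped them in BALF.

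miR-23b-3p was higher in BALF than in Serum by 1.78 on the log2 scale (SE 0.198, edgeR adjusted p = 6.72e-09). It was higher in Epith than in Serum by 2.26 (SE 0.233, edgeR adjusted p = 2.93e-09) and in Pellet than in Serum by 1.67 (SE 0.197, edgeR adjusted p = 3.11e-08). Between BALF and Pellet its difference was +0.11 and did not pass. These calls against Serum held under every scaling, filter and tool tried, with BALF against Serum between +1.73 and +2.60.

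miR-27b-3p followed another order, high in airway fluid and brushings and low in both lavage cells and serum. It had 12121, 13415 and 18524 CPM (lowest, median and highest) in BALF, 10514, 14521 and 15372 CPM in brushings, 2753, 4923 and 8410 CPM in Pellet and 1046, 5295 and 9590 CPM in Serum. BALF did not overlap with Pellet or Serum, which overlapped with each other. BALF was above Serum by 1.65 (SE 0.245, edgeR adjusted p = 1.00e-06) and above Pellet by 1.39 (SE 0.241, edgeR adjusted p = 1.57e-05), and Epith was above Serum by 1.51 (SE 0.290, edgeR adjusted p = 5.32e-05).

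miR-24-1-5p had the same pattern at a low level, with 73.0, 128 and 169 CPM in BALF, 115, 117 and 135 CPM in brushings, 0, 39.4 and 70.1 CPM in Pellet and 19.0, 31.6 and 45.6 CPM in Serum (lowest, median and highest). BALF lay above Serum by 1.91 (SE 0.327) and above Pellet by 1.46 (SE 0.349, edgeR adjusted p = 6.64e-04). The strand had 0 to 10 counts in these pellets and 5 to 39 in these sera.

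Of the a cluster, miR-23a-3p had 15627, 19169 and 32590 CPM in BALF, 17341, 31058 and 40927 CPM in Pellet, 16035, 19294 and 22209 CPM in brushings and 11622, 26899 and 67457 CPM in Serum. All of these ranges overlap, and the serum range is the widest. They pool untreated and immunized libraries, which did not overlap in Serum (11622 to 20078 against 26899 to 67457 CPM) or Pellet (17341 to 25484 against 31058 to 40927 CPM). In BALF these groups did overlap. Untreated and immunized libraries are of different sets, so group and set cannot be told apart. In edgeR's test its log2 fold change was -0.59 for BALF against Serum (adjusted p = 0.0355), -0.64 for BALF against Pellet (adjusted p = 0.0255), -0.77 for Epith against Serum (adjusted p = 0.0442) and +0.82 for Pellet against Epith (adjusted p = 0.0348). None of these calls of miR-23a-3p held without Epith CTR 1, IMM 1 or IMM 2, each of which is part of the joint fit, with -0.44 to -0.19, -0.52 to -0.48, -0.83 to -0.34 and +0.59 to +0.88 for the same pairs. BALF against Serum turned to +0.13 with total counts, a scaling that moved the median of all entries in that comparison by +0.74. miR-27a-3p and miR-24-3p passed in no pair of compartments outside allergy, with +0.43 and +0.20 for BALF against Serum. For that pair miR-27a-3p did pass edgeR's test with DESeq2's size factors (+0.58), without the filter on low counts (+0.60), with total counts (+1.14) and without Epith IMM 2 (+0.79), DESeq2's test (+0.58) and limma (+1.42). miR-24-3p passed with total counts (+0.91), with limma (+1.05) and without Epith IMM 2 (+0.60). miR-24-2-5p passed in these same 3 ways, at +0.92, +1.16 and +0.64. On total counts the split of higher to lower calls among all entries, BALF against Serum, was 163 to 105, beside 126 to 148.

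Epithelial markers, like the b copies, were higher in BALF and brushings than in Serum. The sum of these markers in non-allergic mice was 153320 to 183770 CPM in brushings, 82122 to 238430 CPM in BALF, 12937 to 34099 CPM in Pellet and 1770 to 7501 CPM in Serum. Pellet and Serum do not overlap in this sum. Of the b copies, miR-23b-3p was higher in Pellet than in Serum (+1.67), while miR-27b-3p (+0.26) and miR-24-1-5p (+0.44) did not pass. Mesenchymal and muscle miRNAs were also highest in brushings, at 21252 to 88618 CPM, against 7206 to 18031 CPM in BALF, 162 to 10517 CPM in Pellet and 11088 to 16707 CPM in Serum. By median, the hematopoietic, erythroid and endothelial sums were lower in BALF and brushings than in Serum. The part of epithelial or other RNA in the b cluster levels was not tested.

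In allergic mice the joint fit again placed the b cluster strands above Serum in BALF and Epith, but in Pellet only miR-23b-3p. miR-27b-3p was above Serum by 1.46 in BALF and 1.41 in Epith, and miR-24-1-5p by 1.69 and 2.11. miR-23b-3p was above Serum by 1.84 in BALF, 1.12 in Pellet and 2.29 in Epith, where 76.5, 66.9 and 69.8% of 378 entries differed. BALF was above Pellet, with 74.1% of entries differing, by 1.59 for miR-27b-3p, 1.2 for miR-24-1-5p and 0.72 for miR-23b-3p. All of these passed edgeR's test at an adjusted p under 0.05. For Pellet against Serum, miR-27b-3p (-0.13, edgeR adjusted p = 0.477) and miR-24-1-5p (+0.49, edgeR adjusted p = 0.153) did not pass. miR-24-3p was also higher in BALF than in Pellet by 0.47 (edgeR adjusted p = 0.00715) and lower in Pellet than in Serum, at -0.44 (edgeR adjusted p = 0.0127). The first did not pass edgeR's test with total counts (adjusted p 0.0629) or without the filter on low counts (adjusted p 0.0773), nor the second with total counts (adjusted p 0.273). miR-24-2-5p was at +0.56 for BALF against Pellet (edgeR adjusted p = 0.0370) and -0.60 for Pellet against Serum (edgeR adjusted p = 0.0253). Neither passed with total counts, nor the first with DESeq2's size factors or without the filter on low counts. miR-23a-3p was lower in Epith than in Serum, at -0.86 (edgeR adjusted p = 7.40e-04), and in BALF than in Serum, at -0.37 (edgeR adjusted p = 0.0364), and neither passed with total counts. Pellet was below Epith, with 73.0% of entries differing, at -1.61 for miR-24-1-5p, -1.54 for miR-27b-3p and -1.17 for miR-23b-3p. miR-24-3p was at -0.44 there (edgeR adjusted p = 0.0405) and miR-23a-3p at +0.51 (edgeR adjusted p = 0.0287), and neither passed with total counts or without the filter on low counts. No strand differed between BALF and Epith, where 16.9% of entries did.

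**Figure D4:**
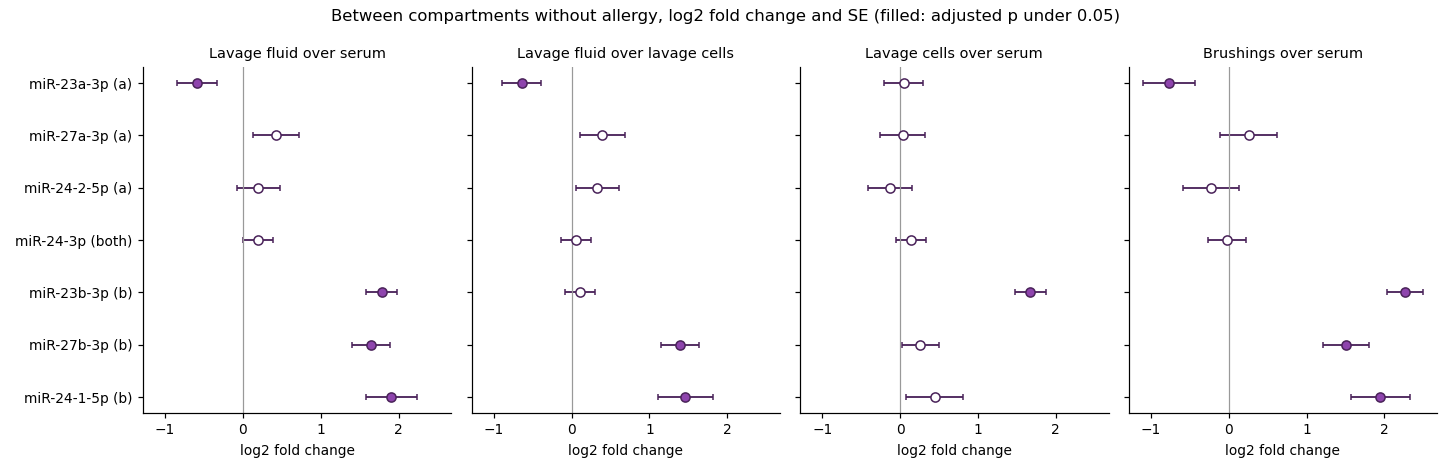
Log2 fold change of each strand between pairs of compartments in non-allergic mice, with bars of 1 SE, from a joint edgeR fit of the 4 compartments; filled points passed at an adjusted p under 0.05. The b strands miR-23b-3p, miR-27b-3p and miR-24-1-5p are 1.65 to 1.91 higher in BALF than in Serum, and miR-23a-3p is at -0.59 there.

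The entries whose levels went most alike with each strand were picked by Pearson's r of log2 CPM over the 48 libraries among 451 others. These values are descriptions: the points share libraries, depth and compartment, and libraries of a compartment sit together. miR-23b-3p went with miR-200b-3p (r 0.931), an epithelial miRNA, then miR-92b-3p (0.928) and miR-34c-3p (0.924), and miR-27b-3p with miR-224-5p (0.916), miR-29b-3p (0.864) and miR-29c-3p (0.844). The company of miR-23a-3p, miR-27a-3p and miR-24-3p was looser. miR-23a-3p went with miR-532-3p (0.749), miR-501-3p (0.738) and let-7d-3p (0.706). miR-27a-3p went with miR-362-3p (0.741), miR-29a-3p (0.718) and its b copy miR-27b-3p (0.712), ahead of miR-21a-5p (0.675). miR-24-3p went with its own partner strand miR-24-2-5p (0.756) ahead of miR-22-5p (0.733), miR-29a-3p (0.721) and miR-671-5p (0.683). Within a cluster r was 0.63 for miR-23a-3p and miR-27a-3p and 0.765 for miR-23b-3p and miR-27b-3p. Across clusters it was 0.712 for miR-27a-3p and miR-27b-3p and -0.048 for miR-23a-3p and miR-23b-3p, with miR-23b-3p at rank 295 of 451 for miR-23a-3p.

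A list of 15 other miRNAs that act in helper T cells gives the setting. In allergic BALF 8 of 15 were higher and 1 lower, among them miR-146a-5p, miR-21a-5p and miR-155-5p. Of all BALF entries 19.0% were higher and 14.2% lower. The list median was 0.32 beside 0.01 over all entries. In allergic Pellet 8 were higher and 2 lower, with a median of 0.95 beside 0.04. Of all Pellet entries 29.5% were higher and 26.7% lower. None of the list passed in Serum, where 0 of 347 entries did, or in brushings, where 2.94% did. The list shares 3 members (miR-146a-5p, miR-150-5p, miR-155-5p) with the hematopoietic markers, and none of the 7 miR-23, miR-27 and miR-24 strands was higher in allergic BALF or Pellet against all non-allergic libraries.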

How the data were processed

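The authors deposited expected counts per mature miRNA, with each of the 3 library sets in a table of its own. Per the submitters' processing notes, reads were trimmed with cutadapt and the build was mm10; versions and the aligner are not given in the sources used here. Reads that fit several entries are split into fractions (4.4% of values were not whole), which for the miR-23 and miR-27 pairs can divide reads between copies. The authors' RPM table of 1398 entries, for which the submitters' processing notes name DESeq2, adds up to 1000000 in each library. It served limma only, whose results are therefore also scaled by library totals. Libraries were made from 20 to 65 ng of RNA with 5 random bases on the 3′ adapter, per the labels' protocols. All columns matched a labelled library (0 unmapped).

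Expected counts were rounded, although plain counts had been assumed in planning. Entries with low counts were removed by filterByExpr (minimum count 10, by the groups compared), counts were scaled by TMM and tested in edgeR 4.0.16 (R 4.3.3) by the robust quasi-likelihood test with the library set as a term and Benjamini-Hochberg adjustment over all entries, called at 0.05. The form of the filter was chosen after results had been seen. Printed CPM are scaled over all 48 libraries, while each fit scaled its own libraries. SE was taken as the fold change on the log2 scale divided by the root of edgeR's F. Ratios are log2((a + 0.5)/(b + 0.5)), with at least 20 counts of a pair (0 under it), tested in Python 3.11.15. DESeq2 1.42.0, limma 3.58.1 (RPM plus 1 or 10), other scalings and filters, and leaving out libraries were alternatives. The scripts were tested on simulated data. The strands were given by name, and members, lists and tests were chosen with earlier results of these data known.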

Additional observations from a re-analysis of the deposited data

Results flagged for a closer look

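Levels of the strands, their a to b ratios and their summed share were checked for single libraries far from the rest of their group. Each value was checked in groups of 4 to 10 libraries, 66 checks in all, of which chance alone flags about 1 in 20. In these checks 4 libraries stood apart, each by the level of a strand. miR-24-2-5p in Pellet AA 6 was at 7.09 log2 CPM, while the other allergic pellets lay between 9.03 and 9.41. miR-27a-3p in Serum AA 6 was at 15.38, with the other allergic sera at 14.08 to 14.63. miR-23b-3p in BALF AA 7 was at 13.30, with the others at 12.54 to 12.84. miR-27a-3p in BALF IMM 4 was at 14.88, with the other immunized lavage fluids at 14.59 to 14.62.

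The allergic change differed between lavage cells and serum for miR-23b-3p (-0.65 on the log2 scale) and for miR-24-3p (-0.67), both lower in the cells by an interaction term in edgeR.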

How the results depend on the processing

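Limits: libraries may share mice across compartments, brushings rest on 6 libraries, untreated and immunized mice were never in the same set, and miR-24-1-5p had at most 16 counts in a pellet. Of 48 calls of single strands, 30 held without the filter on low counts, 32 with total counts (1 turned over), 44 with DESeq2's size factors and 47 with the filter by design, an alternative chosen after seeing the data. DESeq2's test kept 18 of 20 and limma on RPM plus 1 kept 15 of 20, with 2 turned over. The cause of these changes was not tested.

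Counts of all entries that moved by over 1.5 times were these. In brushings 16 passed without the filter, 4 with limma at RPM plus 1 and 5 at RPM plus 10, beside 9. Without the filter, 29 passed in BALF against immunized mice, beside 16, and the difference of the comparisons with untreated and immunized mice had 24 in BALF, beside 3, and 8 in Pellet, beside 2. With total counts, 20 passed in Serum against untreated mice, beside 38, 8 in the difference of comparisons in Serum, beside 13, and 42 between BALF and Epith in allergy, beside 64. Limma gave 20 between BALF and Epith without allergy, beside 40. With total counts the higher calls among all entries were 35 of 99 in BALF against untreated mice, beside 48 of 83, 14 of 24 against immunized mice, beside 13 of 16, 30 of 74 in Pellet against untreated mice, beside 55 of 102, 23 of 79 against immunized mice, beside 57 of 99, and 0 of 20 in Serum against untreated mice, beside 16 of 38. Without allergy they were 131 of 233 for Pellet against Serum, beside 100 of 242, and 139 of 224 for Epith against Serum, beside 100 of 228. For the difference of allergic changes they were 36 of 109 for Pellet minus Serum, beside 65 of 115, and 39 of 54 for BALF minus Pellet, beside 41 of 68.

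Leaving out 1 library gave 0 to 27 calls in brushings, 50 to 97 in BALF against untreated and 0 to 29 against immunized mice, 17 to 56 in Serum against untreated mice and 17 to 27 between BALF and Epith. The difference of the comparisons ranged from 0 to 15 in BALF, 0 to 9 in Pellet and 7 to 22 in Serum.

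Values that had not passed and changed sign: allergic against non-allergic, miR-23a-3p in BALF (-0.051 with total counts, -0.025 with limma at either pseudocount), miR-27a-3p in BALF (0.0070 with the filter by design) and in Pellet (-0.012 with limma at either pseudocount) and miR-24-1-5p in Serum (0.0555 without the filter). Against immunized mice they were miR-24-2-5p in BALF (-0.10, total counts) and miR-27a-3p in Pellet (-0.049 with DESeq2's size factors, -0.44 with total counts) and Serum (0.20 with total counts, 0.0091 without the filter). Between compartments outside allergy, calls of miR-23a-3p turned over: BALF against Serum, called at -0.59, was at 0.13 with total counts and 0.29 with limma, and Epith against Serum, called at -0.77, was at 0.017 with limma. Leaving out 1 library, signs of values that had not passed changed for miR-27a-3p in BALF (-0.057 to 0.041), miR-24-1-5p in Serum (-0.16 to 0.064) and miR-24-3p in Epith (-0.20 to 0.043), and against immunized mice for miR-24-2-5p in BALF (-0.077 to 0.25) and miR-27a-3p in Pellet (-0.14 to 0.15) and Serum (-0.26 to 0.32).

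A pseudocount of 5 in place of 0.5 changed a call or a sign for the miR-24 5p strands alone. The allergic difference was 0.70 in Serum, which passed (adjusted exact permutation p 0.0417), -0.074 in brushings, 0.28 in BALF and -0.0050 in Pellet. The BALF to Pellet difference was -0.48 and did not pass, and the Pellet to Serum difference was -0.83 and passed. Without 1 library, allergic differences of the log2 ratio ranged as follows: miR-23, 0.32 to 0.47 in BALF, 0.30 to 0.41 in Pellet and 0.13 to 0.34 in Serum; miR-27, 0.092 to 0.21 in BALF, 0.49 to 0.65 in Pellet, 0.23 to 0.35 in Serum and -0.0015 to 0.026 in brushings; 5p strands, 0.27 to 0.66 in BALF, -0.67 to -0.040 in Pellet, 0.37 to 0.78 in Serum and -0.049 to 0.21 in brushings. Between compartments the miR-23 ratio ranged from 0.57 to 0.72 for BALF against Epith, -3.21 to -2.86 for Epith against Serum and 1.35 to 1.43 for Pellet against Epith. The miR-27 ratio ranged from -0.037 to 0.082, -1.30 to -1.11 and 0.92 to 1.07 for the same pairs, and the 5p ratio from -2.25 to -1.84 for Epith against Serum and 1.45 to 1.93 for Pellet against Epith. Leaving out a brushing library, or an immunized one beside brushings, cuts the number of arrangements, so the adjusted p rises there by construction.

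Equal replicate numbers were not taken to pair libraries, since not every pair had correlated deviations over 0.1. This cutoff cannot exclude pairing, and all 14 correlations of BALF with Pellet were positive. The main tests between compartments, in edgeR and by permutation, treat all libraries as independent. Of 3 numbered pairs of allergic and untreated libraries, 1, 1 and 0 had a correlation over 0.1 in BALF, Pellet and Serum. Of 14 between compartments, 11 had one for BALF with Pellet (0.037 to 0.27), 6 for BALF with Serum and 4 for Pellet with Serum. With the replicate block in set 2 alone, 75, 101 and 31 entries passed in BALF, Pellet and Serum, beside 73, 96 and 27 with no replicate block. In the 3 compartments outside allergy the replicate block gave 214, 194 and 191 calls, beside 216, 197 and 194.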
